A study of Mus musculus with 4 samples.

Results

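The genes described here serve the endoplasmic reticulum (ER) of secretory cells: 40 genes of protein folding, translocation into the ER, ER-associated degradation and the unfolded protein response, named as a list and found by symbol among the 30905 genes of the deposited tables. They comprise 9 chaperones and co-chaperones, 2 lectin chaperones, 7 disulfide isomerases, oxidase and prolyl isomerases, 3 sensors and transcription factors, 8 genes of degradation, 7 of the translocon and 4 of the signal peptidase. Their levels were read in single cells from mouse pancreatic islets, in 4 libraries with 1 library per group: early db/db at 70 days of age, late db/db at 98 days, late db/db with intervention at 98 days and normal control at 98 days. The db/db mouse carries a recessive mutation of the leptin receptor and becomes obese and diabetic. The genotype label is db/db (C57BL/KsJ) for every library, also for the normal control, while C57BL/6 mice appear in the growth protocol, which leaves the control's strain and genotype unsettled. All mice were males, and db/db mice were kept until they were hyperglycaemic and then allocated to groups at random. The intervention is named only by an unexpanded abbreviation, and the number of animals behind each library is not stated. The early db/db file is named like another control file, and its label was followed. With 1 library per group no test between groups was possible, and a difference between groups cannot be told apart from a difference between libraries or, for early db/db, from age.

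Secreted proteins such as proinsulin enter the ER through the Sec61 channel, lose their signal peptide to the signal peptidase and are folded by chaperones and disulfide isomerases. Chains that fail to fold are drawn back to the cytosol and degraded (ER-associated degradation, ERAD). When unfolded chains accumulate, the membrane sensors Ire1 (gene Ern1), Atf6 and Perk start the unfolded protein response: Ire1 splices the Xbp1 mRNA, Atf6 is cleaved to a transcription factor, and both raise the genes of folding and degradation. Beta cells, which make proinsulin in bulk, are known to depend on this response. The libraries count the 3′ ends of transcripts, so they do not show the splicing of Xbp1 or the cleavage of Atf6.

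The ER stress response element (ERSE), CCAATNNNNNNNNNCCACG, is the classical promoter element of this response, with CCAAT bound by NF-Y and CCACG by Atf6 or Xbp1. RefSeq promoter windows of 300 bases (GRCm38.p6) were matched for 31 of the 40 genes, and 10 of the 31 (32.3%) held the element on either strand, against 37 of 27025 genes (0.137%) with a window. These copies, an element that 10 of the 31 matched genes hold and the others do not, are shown with 15 bases on each side. They are read on the strand that holds CCAAT before CCACG. Capitals mark the fixed letters of the element.
Hspa5: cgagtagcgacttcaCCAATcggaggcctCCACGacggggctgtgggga
Hsp90b1, first copy: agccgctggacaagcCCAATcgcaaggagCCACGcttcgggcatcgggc
Hsp90b1, second copy: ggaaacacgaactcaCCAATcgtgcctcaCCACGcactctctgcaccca
Dnajc3: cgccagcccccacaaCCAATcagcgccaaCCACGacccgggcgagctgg
Creld2: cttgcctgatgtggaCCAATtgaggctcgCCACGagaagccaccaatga
Calr: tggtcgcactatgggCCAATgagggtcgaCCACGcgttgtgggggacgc
Canx: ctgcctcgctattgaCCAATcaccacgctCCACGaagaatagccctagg
Pdia6: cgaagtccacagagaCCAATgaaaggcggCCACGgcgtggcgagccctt
Ero1lb: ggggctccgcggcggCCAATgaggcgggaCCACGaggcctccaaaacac
Syvn1: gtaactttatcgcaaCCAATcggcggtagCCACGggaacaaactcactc
Derl3: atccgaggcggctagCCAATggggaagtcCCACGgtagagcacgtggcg
The Hspa5 copy lies on the plus strand at chr2:34772010-34772058, and the Pdia6 copy on the plus strand at chr12:17266476-17266524. That of Dnajc3 is at chr14:118937812-118937860 and that of Syvn1 at chr19:6046517-6046565, both on the plus strand. The Hsp90b1 copies are at chr10:86705623-86705671 on the minus strand and chr10:86705518-86705566 on the plus strand, 212 and 107 bases before the transcript start at the outermost letter of the element. Calr's is at chr8:84847060-84847108 on the plus strand, and on the minus strand are those of Creld2 (chr15:88819505-88819553), Canx (chr11:50325785-50325833), Ero1lb (chr13:12565667-12565715) and Derl3 (chr10:75893227-75893275). Starting 44 (Syvn1) to 212 (Hsp90b1) bases before the start, all 11 copies stood upstream of it.

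The related element ERSE-II, ATTGGNCCACG, was found in the windows of Dnajb11 and Herpud1 (2 of 31, 6.45%, against 0.0444% of all genes), and that of Herpud1 is shown with the same capitals, from the plus strand at chr8:94386362-94386402.
Herpud1: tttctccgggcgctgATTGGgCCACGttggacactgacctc
Another motif of the response, the core TGACGTG, stood in the window of Hspa5 alone among the 31 (3.23%, against 2.22% of all genes). A match is a run of letters and not a binding site that these data show. The genes with no matched window were Hyou1, Manf, Atf6, Derl1, Ssr2, Sec61a1, Tram1, Spcs3 and Sec11c.

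Between 4458 and 5983 cells per library were kept, from 120934779 to 166034254 UMIs over all barcodes, and any pair of libraries shared 8 to 21 barcodes. Cells were assigned by hormone share: a beta cell held at least 20% of its UMIs in Ins1 and Ins2. None of the 40 genes entered these gates, although Ero1lb, Sec11c and Derl3 also stand in marker lists of beta, delta and plasma cells. There were 1531 early, 746 late, 3231 intervention and 2323 control beta cells, with medians of 56490, 88708, 41875 and 49748 UMIs per cell in that order. Insulin took a median of 49.3% of UMIs in early, 43.1% in late and 47.3% in intervention beta cells, against 63.9% in control beta cells. Levels are CPM (a gene's UMIs scaled to a common total) over the UMIs of genes other than mitochondrial and 7 hormone genes. They were scaled so that the median gene of a class is level between libraries. Classes were then scaled to each other by the median over the 909 genes that entered in every class, so other genes need not be centred between classes. Before the scaling between libraries the median of all genes in beta cells lay 0.27 (early), 0.31 (late) and 0.32 (intervention) log2 units below control. All ratios between libraries are therefore relative to the median gene. A gene was counted as higher or lower at 1.5-fold or more, and 95% intervals cover counting error only.

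In beta cells the ER genes together were close to 2 times as abundant in each db/db library as in the control, relative to the median gene. Without that scaling the gap was smaller. They made up 4.03% of UMIs outside hormone and mitochondrial genes in early, 4.05% in late and 3.84% in intervention, against 2.62% in control beta cells. On the scaled levels they summed to 26105 CPM in early, 26536 CPM in late and 24992 CPM in intervention beta cells, against 13918 CPM in control beta cells. Over control, 24 of the 40 were higher and 3 lower in early db/db, 26 higher and 1 lower in late db/db, and 17 higher and 1 lower with the intervention. Among all 6589 genes compared, 19.3% were higher and 19.8% lower in early db/db, 14.9% higher and 12.6% lower in late db/db, and 13.5% higher and 10.1% lower with the intervention. The median log2 ratio of the 40 genes was 0.86 in early, 0.76 in late and 0.53 in intervention over control, where the median of all genes lies near 0. The 3 comparisons share the control library, so their counts are not independent. Unscaled CPM gave 20, 18 and 12 higher in early, late and intervention over control, against 10%, 8.04% and 7.72% of all genes, and 4, 2 and 7 lower, against 33.2%, 29.2% and 27.8%. CPM of all UMIs gave 28, 32 and 21 higher, against 24.8%, 29.2% and 17.9% of all genes. Where beta cells were grouped by clustering in place of the gate, the libraries filled different clusters: 1 of them held 6 early, 8 late and 135 intervention cells, against 2161 control cells, and another 530 early, 306 late and 820 intervention cells, against 0 control cells. At a threshold of 2-fold over control, 17 were higher and 1 lower in early (7.72% and 7.35% of all genes), 15 higher and 1 lower in late (6.4% and 3.96%), and 11 higher and none lower in intervention (6.13% and 2.43%).

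**Figure D1:**
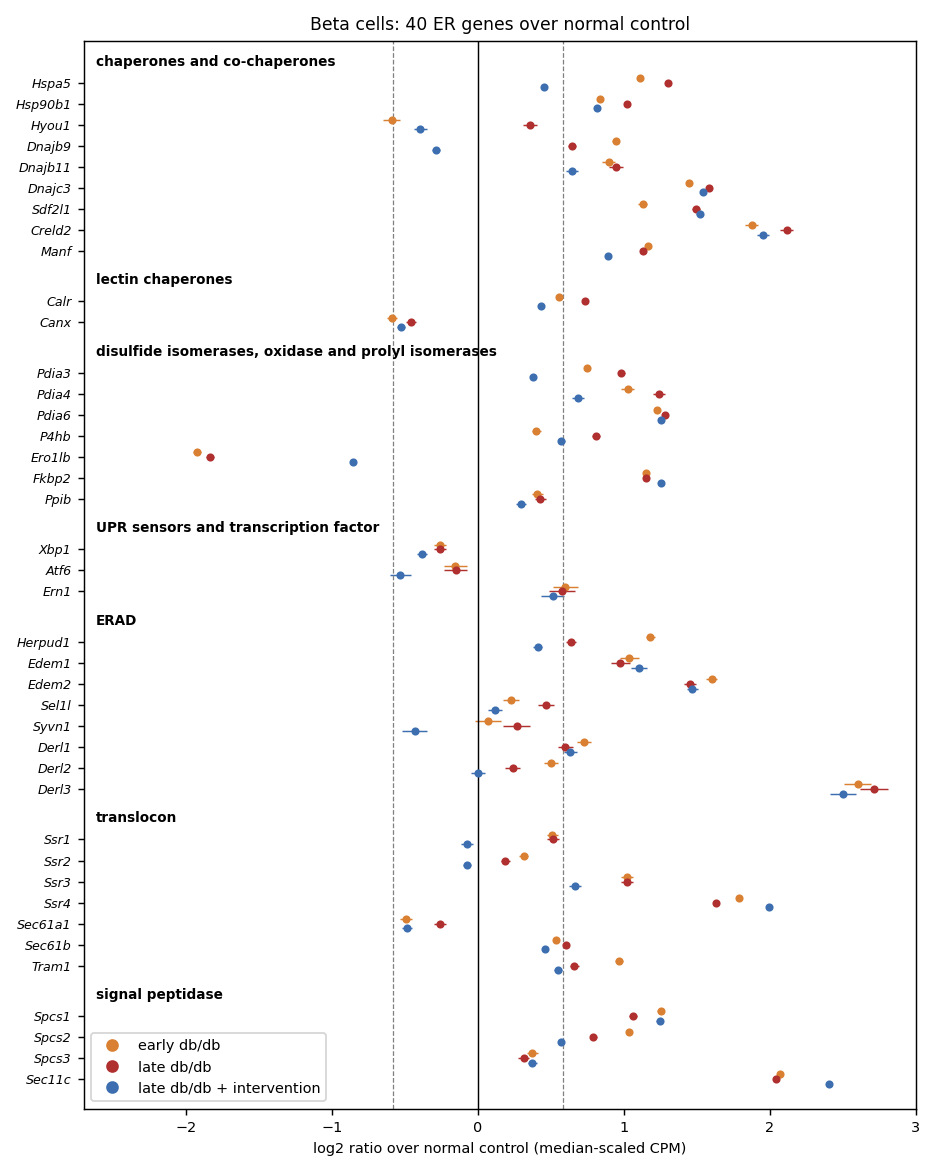
Log2 ratio over the control in beta cells (x axis) for each of the 40 genes (y axis, by role), with 1 point for each of early db/db, late db/db and intervention; bars are 95% counting intervals and dashed lines mark 1.5-fold. Derl3, Sec11c, Creld2 and Ssr4 stand farthest to the right in all 3, and Ero1lb farthest to the left.

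The chaperones of the ER lumen were the group with most genes higher. Of 9, 8 were higher over control in early, 8 in late and 6 in intervention beta cells. Hspa5 (BiP), the main Hsp70-type chaperone of the ER and the repressor of its stress sensors, stood at 2101 CPM in early, 2392 CPM in late and 1330 CPM in intervention beta cells, against 972 CPM in control beta cells. Its log2 ratio over control was 1.11 (95% interval 1.10 to 1.13) in early and 1.30 (1.28 to 1.31) in late, but 0.45 (0.44 to 0.47) with the intervention, short of 1.5-fold. Hsp90b1, the Hsp90-type chaperone of the lumen, stood at 1492 CPM in early, 1701 CPM in late and 1471 CPM in intervention, against 837 CPM in control beta cells. Both genes thus lay above the control in all 3 db/db libraries, and only for Hspa5 did the intervention library lie nearer to the control than to late db/db.

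Several co-chaperones were as high with the intervention as in late db/db. Dnajc3, a J-domain co-chaperone of BiP that also inhibits the kinase Perk, had 1215 CPM in early, 1336 CPM in late and 1301 CPM in intervention, against 446 CPM in control beta cells. Sdf2l1, which acts with BiP and J proteins in keeping chains soluble, had 555 CPM in early, 716 CPM in late and 727 CPM in intervention, against 254 CPM in control beta cells. Creld2, an ER-stress-inducible protein with disulfide isomerase activity, had 322 CPM in early, 380 CPM in late and 339 CPM in intervention, against 87.7 CPM in control beta cells. Its log2 ratios over control, 1.88 (1.83 to 1.92) in early, 2.11 (2.07 to 2.16) in late and 1.95 (1.91 to 2.0) with the intervention, were the largest among the chaperones. Manf, a secreted and ER-resident factor that protects beta cells in mice, had 1610 CPM in early, 1571 CPM in late and 1332 CPM in intervention, against 719 CPM in control beta cells. Dnajb11, another luminal J protein, had 200 CPM in early, 207 CPM in late and 168 CPM in intervention, against 108 CPM in control beta cells, so the control was the lowest library for all 5.

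The remaining chaperones departed from that pattern. Dnajb9, a J protein that represses Ire1 through BiP, had 677 CPM in early, 550 CPM in late and 288 CPM in intervention, against 352 CPM in control beta cells. The intervention library was the lowest for Dnajb9, with a log2 ratio over control of −0.29 (−0.31 to −0.26), within 1.5-fold. Hyou1, the large Hsp70-type nucleotide exchange factor of BiP, had 83.6 CPM in early, 162 CPM in late and 95.9 CPM in intervention, against 126 CPM in control beta cells. Late db/db was the highest library for Hyou1 and early db/db the lowest, at a log2 ratio over control of −0.59 (−0.65 to −0.54).

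**Figure D2:**
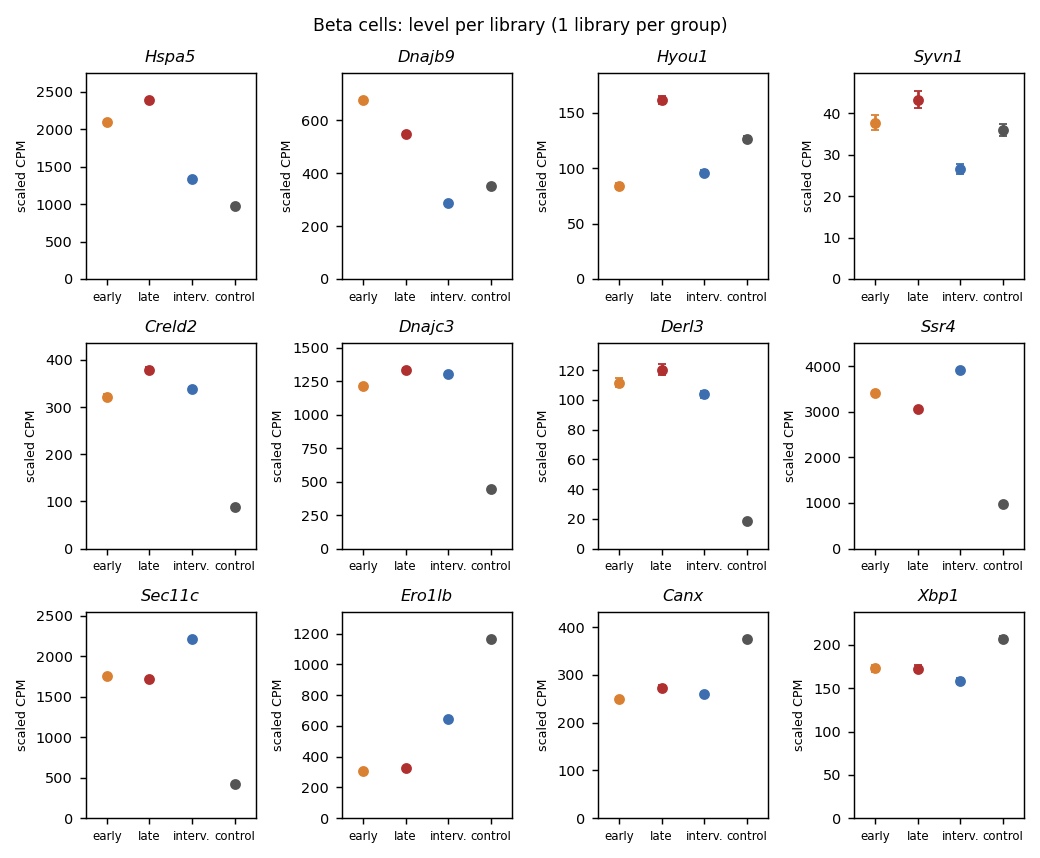
Scaled CPM in beta cells (y axis, from 0) of 12 of the genes in early, late, intervention and control libraries (x axis), 1 point per library with its 95% counting interval. The control is the lowest library for Hspa5, Creld2, Dnajc3, Derl3, Ssr4 and Sec11c and the highest for Ero1lb, Canx and Xbp1.

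The lectin chaperones, which hold glycoproteins through their sugar chains, did not move as a pair. Calr (calreticulin, soluble in the lumen) had 1080 CPM in early, 1221 CPM in late and 990 CPM in intervention, against 735 CPM in control beta cells, past 1.5-fold in late db/db only. Canx (calnexin, its membrane-bound relative) had 249 CPM in early, 273 CPM in late and 260 CPM in intervention, against 375 CPM in control beta cells. Its log2 ratio over control was −0.59 (−0.62 to −0.56) in early, −0.46 (−0.49 to −0.42) in late and −0.53 (−0.56 to −0.50) in intervention. Both genes hold an ERSE in the window printed above.

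Among the enzymes of disulfide and proline folding, 4 of 7 were higher and 1 lower in early, 5 higher and 1 lower in late, and 3 higher and 1 lower in intervention, each over control. Pdia6, a disulfide isomerase that also dampens Ire1, had 1267 CPM in early, 1316 CPM in late and 1296 CPM in intervention, against 542 CPM in control beta cells. Fkbp2, a prolyl isomerase of the lumen, had 1221 CPM in early, 1224 CPM in late and 1312 CPM in intervention, against 550 CPM in control beta cells. For these 2 genes the 3 db/db libraries lay close together at more than 2-fold over control. Pdia4, a multi-domain isomerase, had 224 CPM in early, 260 CPM in late and 177 CPM in intervention, against 110 CPM in control beta cells. Pdia3, the isomerase that partners with calnexin and calreticulin, had 840 CPM in early, 988 CPM in late and 649 CPM in intervention, against 500 CPM in control beta cells. P4hb, the classical protein disulfide isomerase, had 454 CPM in early, 601 CPM in late and 510 CPM in intervention, against 344 CPM in control beta cells. In these 3 the order from late db/db through intervention to control was the same, and 1.5-fold over control was reached by Pdia4 in all 3 libraries, by Pdia3 in early and late, and by P4hb in late.

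Ero1lb, the pancreas-enriched oxidase that recharges the isomerases, went the other way. It had 307 CPM in early, 326 CPM in late and 643 CPM in intervention, against 1164 CPM in control beta cells. The log2 ratio over control was −1.92 (−1.95 to −1.90) in early, −1.84 (−1.87 to −1.81) in late and −0.86 (−0.87 to −0.84) in intervention. Intervention over late gave 0.98 (0.95 to 1.01), the only one of the 40 genes counted as higher in that comparison. Its direction over control was lower with all 3 scalings tried. It also stands in the list of beta cell markers used here.

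The sensors themselves stayed within narrow limits. Ern1 (Ire1) had 51.8 CPM in early, 51.0 CPM in late and 48.8 CPM in intervention, against 34.2 CPM in control beta cells, at 1.5-fold in early (log2 0.60, 0.51 to 0.68) and just short of it in late (0.57, 0.49 to 0.66) and intervention (0.51, 0.43 to 0.59). Xbp1, the factor that Ire1 activates by splicing, had 173 CPM in early, 173 CPM in late and 158 CPM in intervention, against 207 CPM in control beta cells. Atf6 had 50.7 CPM in early, 50.8 CPM in late and 39.0 CPM in intervention, against 56.4 CPM in control beta cells. The control was thus the highest library for Xbp1 and Atf6 and the lowest for Ern1, with log2 ratios over control from −0.53 to 0.60 over the 3 genes. In late over control that order of Xbp1 and Atf6 depended on the scaling, since CPM of all UMIs gave 0.04 and 0.14.

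In ERAD, 5 of 8 genes were higher over control in early and in late and 4 in intervention, and none was lower. Derl3, a derlin of the retrotranslocation machinery found mainly in secretory cells, had 111 CPM in early, 120 CPM in late and 104 CPM in intervention, against 18.3 CPM in control beta cells. With log2 ratios over control of 2.60 (2.51 to 2.70) in early, 2.71 (2.62 to 2.81) in late and 2.50 (2.41 to 2.59) in intervention, it had the largest ratio of the 40 genes in each. Plasma cells also express Derl3: the other 6 plasma cell markers summed to 4.03 CPM of all UMIs in early, 14.4 in late and 1.69 in intervention, against 1.18 in control beta cells, and their part in the result was not tested. Edem2, a lectin-like mannosidase that marks glycoproteins for disposal, had 367 CPM in early, 331 CPM in late and 335 CPM in intervention, against 121 CPM in control beta cells. Its relative Edem1 had 115 CPM in early, 110 CPM in late and 120 CPM in intervention, against 56.1 CPM in control beta cells. These 3 genes were about as high with the intervention as in late db/db.

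Herpud1, which assembles the Hrd1 ligase complex and is a strong stress-inducible gene, had 512 CPM in early, 352 CPM in late and 300 CPM in intervention, against 226 CPM in control beta cells. Early db/db was the highest library, and only early and late passed 1.5-fold. Derl1, the derlin paralog of wider expression, had 172 CPM in early, 158 CPM in late and 161 CPM in intervention, against 104 CPM in control beta cells. Syvn1, the Hrd1 ubiquitin ligase itself, had 37.7 CPM in early, 43.2 CPM in late and 26.6 CPM in intervention, against 36 CPM in control beta cells. The ligase was therefore within 1.5-fold of control in every db/db library, as were its adaptor Sel1l (log2 0.12 to 0.46) and Derl2 (−0.00 to 0.50).

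Translocation showed an uneven pattern within single complexes. Ssr4, the delta subunit of the translocon-associated protein complex (TRAP), had 3403 CPM in early, 3058 CPM in late and 3925 CPM in intervention, against 987 CPM in control beta cells, log2 ratios of 1.78 (1.77 to 1.8), 1.63 (1.62 to 1.65) and 1.99 (1.98 to 2.0) over control in that order. The gamma subunit Ssr3 had 275 CPM in early, 275 CPM in late and 215 CPM in intervention, against 135 CPM in control beta cells. Ssr1, the alpha subunit, had 231 CPM in early, 232 CPM in late and 154 CPM in intervention, against 163 CPM in control beta cells, and Ssr2, the beta subunit, lay between −0.08 and 0.31 on the log2 scale over control. Transcripts of the 4 subunits of one complex thus differed from about level to about 4-fold over control.

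Of the channel itself, Sec61b (its beta subunit) had 1272 CPM in early, 1337 CPM in late and 1211 CPM in intervention, against 880 CPM in control beta cells. The pore subunit gene Sec61a1 lay below control in all 3, at log2 −0.50 in early, −0.26 in late and −0.49 in intervention, within 1.5-fold. Tram1, a membrane protein that helps chains enter the channel, had 564 CPM in early, 456 CPM in late and 422 CPM in intervention, against 289 CPM in control beta cells.

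The signal peptidase had its catalytic subunit in the lead. Sec11c, one of 2 catalytic paralogs known in mammals, had 1754 CPM in early, 1717 CPM in late and 2212 CPM in intervention, against 418 CPM in control beta cells, with log2 ratios over control of 2.07 (2.05 to 2.09) in early, 2.04 (2.02 to 2.06) in late and 2.41 (2.39 to 2.42) in intervention. The accessory subunit Spcs1 had 736 CPM in early, 646 CPM in late and 733 CPM in intervention, against 309 CPM in control beta cells. Spcs2 had 1035 CPM in early, 873 CPM in late and 747 CPM in intervention, against 505 CPM in control beta cells. Spcs3, which is also essential to the complex, was within 1.5-fold, at log2 0.37 in early, 0.31 in late and 0.37 in intervention. All 4 subunits lay above the control in every db/db library.

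**Figure D3:**
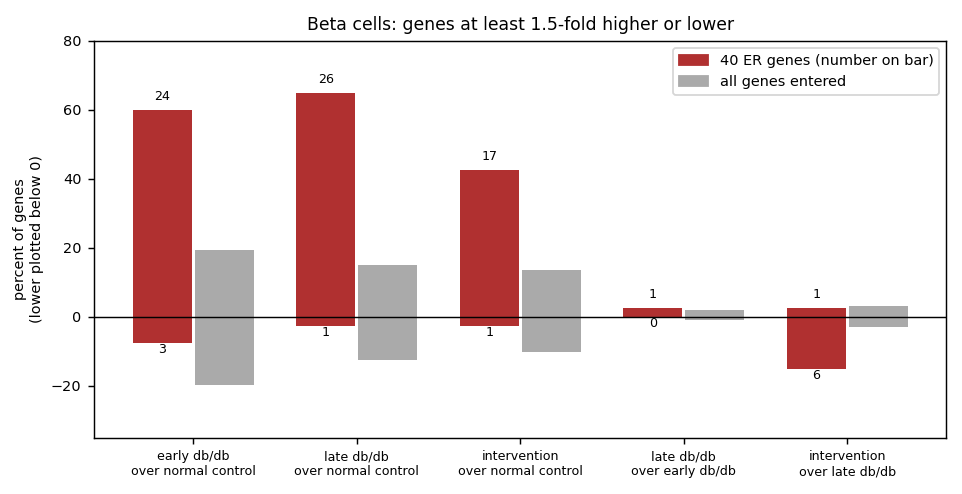
Percent of the 40 genes (red bars, with the number of genes) and of all genes (grey bars) at least 1.5-fold higher (above 0) or lower (below 0) in beta cells, for each of the 5 comparisons. Over control 24, 26 and 17 genes were higher in early, late and intervention; late over early had 1 higher.

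Early and late db/db differed little in these genes. Late over early, 1 of the 40 was higher and none lower, against 1.99% of all genes higher and 1.03% lower, and the median log2 ratio was 0.01. The gene was Hyou1, at 0.95 (0.89 to 1.01). The same gene was higher in late than in early db/db in alpha cells (45.9 against 26.1 CPM) and delta cells (66.9 against 33.0 CPM). Herpud1 came next in size, at −0.54 (−0.57 to −0.51), within 1.5-fold. None reached 2-fold, against 0.182% of all genes higher and 0.455% lower.

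Intervention over late, 6 of the 40 were lower and 1, Ero1lb, was higher, against 3.01% of all genes lower and 3.16% higher; the median of the 40 was −0.21. The 6 were Dnajb9 (log2 −0.93, −0.96 to −0.90), Hspa5 (−0.85, −0.86 to −0.83), Hyou1 (−0.75, −0.80 to −0.70), Syvn1 (−0.70, −0.79 to −0.60), Pdia3 (−0.61, −0.63 to −0.59) and Ssr1 (−0.59, −0.63 to −0.55), 3 of them chaperones of the BiP cycle. Pdia4 stood just within the threshold at −0.56 (−0.59 to −0.52). On the other side were Sec11c at 0.37 and Ssr4 at 0.36, and Dnajc3, Sdf2l1, Pdia6 and Edem2 differed by less than 0.05 log2. None of the 40 reached 2-fold in either direction in this comparison, against 0.759% of all genes higher and 0.516% lower. The 8 listed genes of the immediate early and heat shock response (such as Fos, Jun and Hspa1a) summed to 495 CPM of all UMIs in intervention beta cells, against 964 in late beta cells. In early beta cells that sum was 858, against 534 in control beta cells, so it was higher in the 2 libraries with the most Hspa5, and its part in the result was not tested.

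Other values differed with the libraries too. Acinar markers summed to 1074 CPM of all UMIs in early, 221 in late and 110 in intervention beta cells, against 79.1 in control beta cells, and B cell markers to 9.91, 82.5 and 5.48 against 17.1 in the same order. Alpha cell markers summed to 6274 in early, 6426 in late and 8958 in intervention, against 1948 in control beta cells. Cells with 15 to 20% insulin, just below the gate, numbered 34 in early, 35 in late and 109 in intervention, against 17 in the control library. The part of these in the results was not tested. Stricter hormone cuts moved 44 of 170 ratios beyond their counting interval, cell classes from clusters 47 and subtracting free RNA 2. Other scalings moved more of the 170: CPM of all UMIs 170, unscaled CPM 113 and TMM 93. The free RNA subtracted ran from 159 UMIs per cell in early to 720 in intervention, so that step could move little.

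Alpha and delta cells, the glucagon and somatostatin cells of the islet, showed much smaller differences in the same genes. In alpha cells (761 early, 137 late, 544 intervention and 1063 control cells) the 40 genes summed to 9081 CPM in early, 9060 CPM in late and 8108 CPM in intervention, against 7197 CPM in the control. Of the 38 genes that entered, 3 were higher and none lower in early over control (4.67% and 6.37% of all genes), 2 higher and 1 lower in late (4.03% and 3.12%), and 4 higher and none lower in intervention (3.49% and 2.97%). In delta cells (205 early, 103 late, 193 intervention and 295 control cells) the sums were 11748, 11927 and 11507 CPM in early, late and intervention, against 8784 CPM in the control. Of 39 that entered, 6 were higher and 2 lower in early over control (7.47% and 9.46% of all genes), 4 higher and 1 lower in late (5.39% and 5.1%), and 4 higher and none lower in intervention (4.74% and 5.44%). Late over early, 2 genes were higher and 1 lower in alpha cells (4.47% and 2.71% of all genes), and 2 higher and none lower in delta cells (6.51% and 4.79%). Intervention over late, 1 was higher and 2 lower in alpha cells (3.41% and 3.76%), and 1 higher and 1 lower in delta cells (4.23% and 5.63%). The difference between cell classes in their response was not tested, since each group is 1 library.

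Outside beta cells Ssr4 was the gene most often at least 1.5-fold above the control, in 5 of the 6 alpha and delta comparisons. In alpha cells it had 1791 CPM in early, 1354 CPM in late and 1585 CPM in intervention, against 992 CPM in the control, and in delta cells 1520 CPM in early, 1364 CPM in late and 1591 CPM in intervention, against 707 CPM in the control. Ero1lb was again low in early and late db/db, in delta cells with 21.1 CPM in early, 19.5 CPM in late and 43.1 CPM in intervention, against 34.7 CPM in the control, and in alpha cells, with 53.2 CPM in early, 48.7 CPM in late and 80.5 CPM in intervention, against 75 CPM in the control. In both classes early and late lay below the other 2 libraries. Beta cell markers, a list that holds Ero1lb and the insulin genes, summed in alpha cells to 3337 CPM of all UMIs in early, 6283 in late and 32010 in intervention, against 13220 in the control, and in delta cells to 48130 in early, 42760 in late and 70900 in intervention, against 46860 in the control. Insulin made up 9.45% of free RNA in early, 6.31% in late and 32.3% in intervention, against 30.2% in the control, and the part of these in the Ero1lb values was not tested. Derl3 was near the limit of detection there, at 1.5 to 7.0 CPM in alpha and 1.5 to 7.5 CPM in delta cells, and did not enter. Hspa5 in delta cells had 1129 CPM in early, 1224 CPM in late and 998 CPM in intervention, against 735 CPM in the control, and in alpha cells 732 CPM in early, 706 CPM in late and 552 CPM in intervention, against 587 CPM in the control. Intervention over late, Ero1lb was higher in alpha (0.72, 0.45 to 1.0) and delta cells (1.14, 0.57 to 1.73), and Pdia3 lower in alpha (−0.66, −0.76 to −0.55) and delta cells (−0.59, −0.71 to −0.46).

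**Figure D4:**
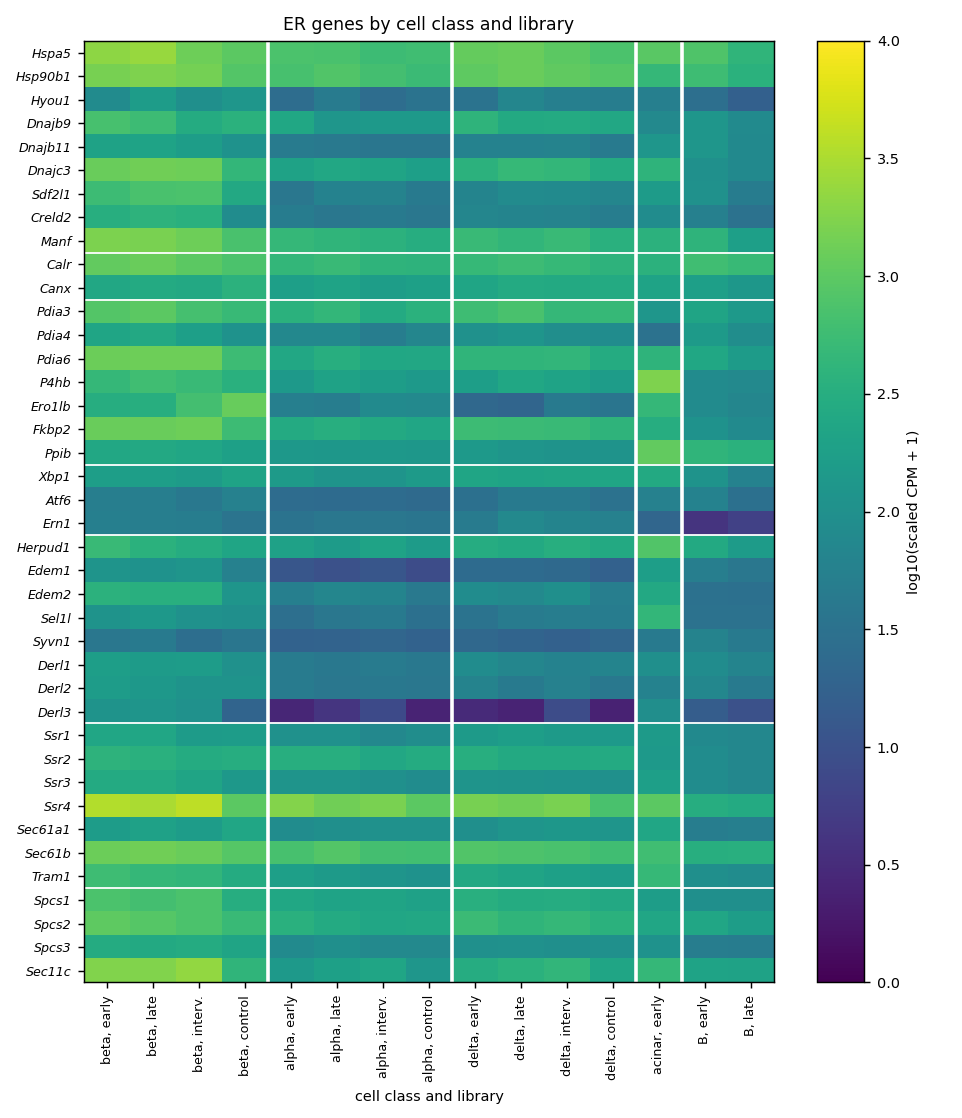
Level of each of the 40 genes (rows, by role) in each cell class and library (columns), as log10 of scaled CPM plus 1 on a colour scale. Derl3 is dark in alpha and delta cells (1.5 to 7.5 CPM), Ssr4 is bright in the beta cells of early, late and intervention, and Ero1lb is brightest in control beta cells (1164 CPM).

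Between cell classes the 4 libraries serve as samples, and beta cells held more of nearly all these transcripts than alpha or delta cells. edgeR's quasi-likelihood test with library as a block and Benjamini-Hochberg adjustment over 6853 genes called 40 of 40 higher in beta than in alpha cells, against 30.5% of all genes higher and 30.9% lower. The median log2 difference was 1.61, against −0.01 over all genes. Over delta cells 38 of 40 were higher and none lower, against 28% of all genes higher and 27.2% lower, with a median of 1.36 against −0.00. Derl3 in both comparisons and Edem1 over alpha cells passed the filter on low counts only through beta cells and so had to differ; they are counted here, but no size is given for them. The largest of the other differences over alpha cells were those of Sdf2l1 (3.56 ± 0.22, log2 ± SE), Ero1lb (3.19 ± 0.22) and Sec11c (3.12 ± 0.27), and over delta cells those of Ero1lb (4.58 ± 0.25), Sdf2l1 (3.15 ± 0.22), Edem1 (2.47 ± 0.13) and Creld2 (2.42 ± 0.30). Each of these was higher in beta cells in 4 of 4 libraries.

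Xbp1 and Ern1 were the exceptions over delta cells. Xbp1 differed by 0.01 ± 0.09 (adjusted p = 0.924 in edgeR) and Ern1 by −0.06 ± 0.13 (adjusted p = 0.718), and neither was called, while Atf6 was higher in beta cells (0.75 ± 0.16, adjusted p = 0.00267). On the levels scaled between classes, 38 of 40 genes were higher in beta than in alpha cells in all 4 libraries, with Ssr4 and Ern1 level in the control (log2 −0.01 and −0.00). On the same levels 34 of 40 were higher than in delta cells in all 4 libraries. Xbp1 was higher in 0 of 4 and Ern1 in 1, and, of those called, Herpud1 and Canx in 2 and Atf6 and Hsp90b1 in 3. The edgeR fit used another scaling (TMM), and some genes lay higher in it than in any library on these levels. Xbp1 ran from −0.42 to −0.11 here, against 0.01 in the fit, and Hsp90b1 from −0.05 to 0.54, against 0.68. These counts of libraries thus depend on the scaling. For Ssr4 the beta over alpha log2 ratio was 0.93 in early, 1.18 in late and 1.31 in intervention, against −0.01 in the control. For Sec11c it was 3.59 in early, 3.22 in late and 3.28 in intervention, against 1.76 in the control, and for Creld2 2.78, 3.35 and 2.98 against 1.25. Ero1lb had 2.53 in early, 2.74 in late and 3.0 in intervention, against 3.96 in the control, the only one of these 4 genes with its largest ratio there. These differences between libraries were not tested.

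Acinar and B cells could be read in few libraries, since the intervention and control libraries held 3 acinar cells each and 5 and 14 B cells. Acinar cells secrete digestive enzymes and hold most of their UMIs in those genes. In 129 acinar cells of early db/db the 40 genes summed to 13392 CPM, against 26105 CPM in beta cells of that library. That gap depends on the scaling between classes, with a factor of 0.295 for acinar and 1.61 for beta cells. Unscaled, the 40 genes made up 0.394% of UMIs outside hormone and mitochondrial genes in acinar cells, against 4.03% in those beta cells. On the scaled levels 3 of the 40 were at least 2-fold higher in acinar than in beta cells and 21 at least 2-fold lower. Of all genes, 5.95% were higher and 48.5% lower, so these counts lie near the share of all genes. The 3 were P4hb at 1680 CPM, Ppib, the luminal cyclophilin, at 1084 CPM and Sel1l at 451 CPM. Their direction depended on the scaling, since as unscaled shares of UMIs outside hormone and mitochondrial genes all 3 were lower in acinar cells. In B cells, 31 were 2-fold lower than in beta cells in early and 37 in late db/db, and none higher. Of all genes, 27% were lower and 26.9% higher in early, and 29.7% lower and 28.5% higher in late. Late over early, 15 of 38 genes were lower in B cells and none higher, against 12.3% of all genes lower and 12.6% higher. Among them were Manf (180 CPM in late, against 401 CPM in early), Sdf2l1 (47.3 against 105 CPM), Hspa5 (418 against 802 CPM) and Xbp1 (59.3 against 113 CPM), and 8 of the 9 chaperones. Hyou1, counted in those 8, passed the filter on low values only through early (28.5 unscaled CPM, against 16.8 in late). The numbers of B cells, 1823 in late and 235 in early, and the sums of acinar markers in them, 2617 and 8791 CPM of all UMIs in the same order, differed as well. So did the sums of immediate early and heat shock genes (1747 in late, against 3965 in early), duct markers (69.2 against 3192) and beta cell markers (16070 against 5271). Plasma cell markers other than Derl3 summed to 1001 in late, against 1397 in early. The part of all these in the B cell result was not tested.

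Set by insulin share, beta cells of the db/db libraries had a median difference in the ER genes near or below 0, while control beta cells with more insulin held more of most ER transcripts. Beta cells were split into 3 groups of equal size (tertiles) by insulin share of UMIs, and the highest tertile was set against the lowest, relative to the median gene; cells of 1 library share their source, so this is a description with no test. The cuts lay at 44.2% and 53.6% insulin in early, 37.9% and 48.0% in late and 41.8% and 52.2% in intervention, against 61.1% and 66.4% in the control. The libraries thus contrast different parts of the insulin range. The median log2 ratio of the 40 genes was 0.06 in early, 0.04 in late and −0.19 in intervention, against 0.47 in the control. Above 0 were 24 genes in early, 24 in late and 10 in intervention, against 37 in the control. At 1.5-fold none was higher or lower in early (0.295% and 0.984% of all genes), and 1 was higher and 1 lower in late (0.34% and 0.923%) and in intervention (1.41% and 1.81%). In the control 13 were higher and none lower, against 2.01% and 2.16% of all genes. Derl3 had a relative log2 ratio of 0.53 in early, 0.62 in late and 0.10 in intervention, against 2.0 (1.74 to 2.27) in the control, where its unscaled CPM was 56.7 in the highest and 14.7 in the lowest tertile. Sdf2l1 had 0.17 in early, 0.16 in late and −0.49 in intervention, against 1.07 in the control. Fkbp2 had −0.56 in early, −0.70 in late and −0.77 in intervention, against 0.39 in the control. Ero1lb was above 0 in every library, at 0.41 in early, 0.44 in late and 0.96 in intervention, against 0.90 in the control. Depth moved with the split: in the control the lowest, middle and highest tertile had medians of 38800, 48480 and 65570 UMIs, and the part of depth was not tested.

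**Figure D5:**
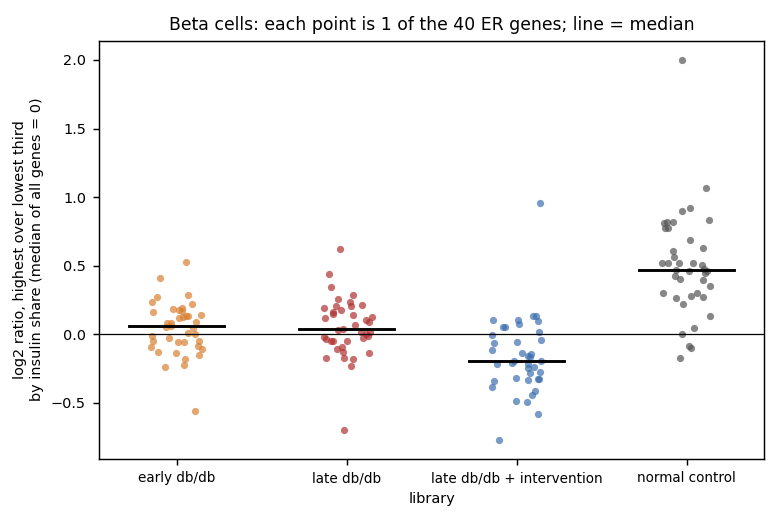
Relative log2 ratio of the highest over the lowest tertile of beta cells by insulin share, for each of the 40 genes (points) in each library (x axis), with the median as a line. Above 0 lie 24 genes in early, 24 in late and 10 in intervention, against 37 of 40 in the control.

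Across single beta cells, Pearson's r between the summed share of the 40 genes and the insulin share was 0.155 in early (1531 cells), 0.159 in late (746 cells) and 0.0525 in intervention (3231 cells), against 0.504 in the control (2323 cells). The r of the summed share with the log2 of the cell's UMIs was 0.133, 0.235 and 0.365 in early, late and intervention, against 0.309 in the control; cells of a library share its depth and free RNA, and no p is given. Among genes averaging at least 5 UMIs per cell, the pair with the highest r was Hspa5 and Hsp90b1 in early (0.491), Hsp90b1 and Calr in late (0.724), Ssr4 and Sec11c in intervention (0.602) and Manf and Pdia6 in the control (0.561). BiP was also uneven between cells: at the tenth and the ninetieth percentile of cells it stood 3.0-fold apart in early, 2.9-fold in late and 3.9-fold in intervention, against 3.5-fold in the control, and Ero1lb 5.1-fold apart in early, 3.1-fold in late and 6.8-fold in intervention, against 3.8-fold in the control. These ratios include counting noise at unlike depth: cells held on average 62.2 UMIs of Hspa5 in early, 127 in late and 29.6 in intervention, against 26.2 in the control, and 9.09, 17.3 and 14.3 of Ero1lb, against 31.3 in the same order.

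Members with an ERSE or ERSE-II in their window did not stand apart from the rest in size. The 12 with either element had a median log2 ratio over control of 1.0 in early, 0.98 in late and 0.55 in intervention, and the 19 with neither 0.94, 0.81 and 0.57 in the same order. The 12 include Canx and Ero1lb, below control in all 3 libraries, as well as Derl3 and Creld2, and the 19 include Xbp1, also below control in all 3. No test of the promoter groups was made.

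Of the ER genes outside the list, more were higher than lower over control in beta cells. Of 123 such genes in lists of the secretory pathway, 112 entered in beta cells, and 52 were higher and 7 lower in early, 47 and 4 in late, and 31 and 4 in intervention, each over control, with medians of 0.47, 0.49 and 0.19. Of all genes, 19.3% were higher and 19.8% lower in early, 14.9% and 12.6% in late, and 13.5% and 10.1% in intervention. The oligosaccharyl transferase, which attaches sugar chains to entering proteins, had 7, 7 and 5 of 12 genes higher and none lower, and ER to Golgi transport had 15, 13 and 8 of 26 higher and 1 lower in each. Kdelr3, a receptor that returns ER proteins from the Golgi, had 66.9 CPM in early, 60.0 CPM in late and 44.3 CPM in intervention, against 6.97 CPM in control beta cells. Prdx4, the peroxiredoxin of the ER, had 166 CPM in early, 152 CPM in late and 197 CPM in intervention, against 30.8 CPM in control beta cells. Fkbp11, a secretory-cell prolyl isomerase, had 962 CPM in early, 834 CPM in late and 906 CPM in intervention, against 179 CPM in control beta cells. For Prdx4 and Fkbp11, all db/db libraries lay more than 4-fold above the control. Kdelr3 lay below the filter of 20 CPM in the control and entered only through the db/db libraries, so no size is drawn from its ratio.

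Of the genes that went down, Atf6b, the paralog of Atf6, had 12.6 CPM in early, 13.5 CPM in late and 13.5 CPM in intervention, against 25.5 CPM in control beta cells. Sec24c, a cargo adaptor of the COPII coat, had 27.3 CPM in early, 30.7 CPM in late and 33.6 CPM in intervention, against 57.8 CPM in control beta cells. Sec61a2, the second pore gene of the channel, was lower over control in early (−0.99) and late (−0.83), and at −0.33 in intervention within 1.5-fold. Intervention over late, 7 of the 112 were lower and none higher, led by Sec61g, the gamma subunit of the channel (628 CPM in intervention, against 1113 CPM in late), Sec23b of the COPII coat (67.3 against 116 CPM) and Bhlha15, a transcription factor of secretory cells (22.2 against 37.8 CPM). Of all genes, 3.01% were lower and 3.16% higher in that comparison. Late over early, none of the 112 reached 1.5-fold, against 1.99% of all genes higher and 1.03% lower. In the edgeR fit over 4 libraries 92 of 111 were higher and 3 lower in beta than in alpha cells, and 88 higher and 4 lower than in delta cells. Of all genes in that fit, 30.5% were higher and 30.9% lower over alpha cells, and 28% and 27.2% over delta cells.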

How the data were processed

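Single-cell RNA libraries of mouse islets (10x Genomics 3′ chemistry, per the labels' protocols) were read as UMI counts per gene and barcode, deposited by the authors without normalization. Per the submitters' processing notes, CASAVA 1.8, Cell Ranger and Seurat were used with build mm10; the file headers give software version 3.0.0. Barcodes with at least 1000 UMIs, 500 genes and at most 20% mitochondrial UMIs were kept. Scrublet's own threshold called 2 doublets among 5115 intervention cells, too few to have worked, so the cells with the highest scores were removed at 0.8% per 1000 cells.

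Beta cells held at least 20% of UMIs in Ins1 and Ins2 and under 5% in each of Gcg, Sst and Ppy; alpha or delta cells held at least 5% in Gcg or Sst; acinar cells at least 20% in zymogen genes; B cells at least 2 of Cd79a, Cd79b and Ms4a1. UMIs were summed per class and library. Genes entered at a mean of 20 CPM and 50 UMIs in the pair. Ratios carry exact conditional binomial 95% intervals, and levels exact Poisson ones, for counting error only. Class differences were tested with edgeR 4.0.16 in R 4.3.3 on 12 sums (3 classes in 4 libraries, TMM, library as block), with DESeq2 1.42.0 as an alternative. On simulated data the fit recovered 73.7% of genes changed 1.5-fold and 100% of those changed 2-fold for beta over alpha. The simulation gave every gene the same spread and the same change in each library, so these rates need not hold for the real libraries. The libraries are not shown to come from separate animals, so p-values cover the spread between these libraries.

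The 40 genes, the other ER lists and the markers were chosen with earlier results of these data known. Values in each library are given for genes 1.5-fold apart in beta cells in any comparison, for the sensors and for Hspa5, at most 3 other ER genes per direction and comparison, and the 5 largest class differences, less those of genes too low to enter in the other class. Promoter windows came from RefSeq (GRCm38.p6); Ero1lb was matched through a synonym. Alternatives were other scalings, cell gates from clusters, stricter gates and filters, doublets kept, no low filter, free RNA subtracted and a 2-fold threshold.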

Additional observations from a re-analysis of the deposited data

Results flagged for a closer look

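For 2 genes, late over early db/db went one way in islet cells and the opposite way in B cells past 1.5-fold, with 1 library per group, so the difference was not tested. Hyou1 was higher in late db/db in beta (log2 0.95), alpha (0.81) and delta cells (1.02) and lower in B cells (−0.82), which are differences of 1.77, 1.63 and 1.84 between the classes. In B cells its value rested on 138 UMIs in late and 28 in early. There it passed the filter of 20 CPM only through early (28.5 unscaled CPM, against 16.8 in late), so a fall was favoured in advance. Sdf2l1 was higher in alpha cells (0.64) and lower in B cells (−1.15), a difference of 1.79.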

How the results depend on the processing

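In beta cells no ratio of the listed genes past 1.5-fold changed direction under the alternatives run, and no class test past its threshold did. Of the 170 beta cell ratios rerun, 23 changed direction. All 23 were at most 0.264 in size on the log2 scale and mostly in late over early or intervention over late. Ratios in alpha, delta, B and acinar cells, and those of ER genes outside the list, were not rerun. Counts of the 40 genes in beta cells moved by over 1.5 times as follows. At a 2-fold threshold, those higher were 15 in late over control, 11 in intervention over control, 0 in late over early and 0 in intervention over late, and those lower were 0 in intervention over late, 0 in intervention over control and 1 in early over control. With CPM not scaled to the median gene, 7 were lower in intervention over control and 2 in late over control, against 27.8% and 29.2% of all genes; with TMM scaling 3 were lower in intervention over control and 1 in early over control, against 12.46% and 18.93%; with CPM of all UMIs 1 was lower in early over control, against 15.1%. Over the alternatives the median of the 40 over control ran from 0.58 to 0.98 in early, 0.46 to 1.06 in late and 0.24 to 0.65 in intervention, and from −0.38 to −0.16 in intervention over late. Between classes, leaving out each library in turn gave 39 to 40 genes higher over alpha and 37 to 38 over delta cells. Ssr2 over alpha cells lost its call without the early library (adjusted p = 0.0782 in edgeR), without the library block (0.0929) and with classes from clusters (0.0527), and Herpud1 over delta cells without early (0.135), without late (0.115) and without the block (0.0522). Clusters gave no delta class, so that alternative has no value over delta cells. No paired analysis was possible between groups because each group is 1 library; the library block above pairs cell classes. Depth was no limit in beta cells, but Derl3 and Edem1 in alpha cells and Derl3 in delta cells were too low to enter.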

Other observations

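B cells with at least 10% of UMIs in immunoglobulin constant genes and Jchain, which were kept apart from the B cells above, numbered 20 in late and 24 in early db/db and none in the other libraries. In unscaled CPM, Hsp90b1 stood at 5548 in late and 3846 in early in these cells, against 375 in late and 583 in early in the other B cells. Edem1 stood at 1002 in late and 853 in early, against 38.8 in late and 51.0 in early, Derl3 at 368 in late and 286 in early, against 9.4 in late and 14.3 in early, and Xbp1 at 788 in late and 1229 in early, against 62.3 in late and 114 in early. With so few cells these are values of 2 libraries and no comparison of groups was made.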
